A study of Mus musculus with 12 samples.

Results

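The genes described are those of the proteasome, taken as every gene whose only platform symbol starts with Psma, Psmb, Psmc, Psmd or Psme followed by a digit. The rule found 44 of the 18193 genes that had a probe set with exactly 1 symbol, measured by 91 probe sets. Since 23 of the 44 had more than 1, each gene was read by the probe set whose mean over the 12 arrays was highest. Of the 44, 42 encode subunits, dedicated assembly chaperones or activators of the proteasome. Psmc3ip, a partner of meiotic recombinases, and Psme3ip1, a binding partner of Psme3, match by symbol but are not subunits. Psme2, the partner of Psme1, was read only by a probe set that carries several symbols and is not included.

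The study compared untreated wild type mice with Gdap1-/- mice, which lack exon 5 of Gdap1, in 2 sources of RNA. One was the lysate of whole sciatic nerve and the other was motoneurons cut out by laser dissection. The Gdap1 protein sits in the outer membrane of mitochondria, and its mutations cause a form of Charcot-Marie-Tooth neuropathy. The 4 groups, wild type nerve, Gdap1-/- nerve, wild type motoneurons and Gdap1-/- motoneurons, had 3 Affymetrix arrays each, all from mice aged 2 months. The design text states that RNA came from 5 mice and that the 3 samples per group were selected by RNA amount and quality. The deleted exon is not covered by the Gdap1 probe sets, which lie in exons 4 and 6, so these do not check the genotype labels.

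The proteasome is the main protease of the cytosol and nucleus for proteins tagged with ubiquitin. Its 20S core is a barrel of alpha rings (Psma genes) around beta rings (Psmb genes), of which Psmb5, Psmb6 and Psmb7 carry the cutting sites. The 19S regulatory particle has a base with the ATPases that unfold substrates (Psmc genes) and a lid that removes ubiquitin (Psmd genes). Interferon and cells of the immune system switch in Psmb8, Psmb9 and Psmb10 for the 3 catalytic subunits, which gives the immunoproteasome, and Psme1 belongs to the PA28 activator that docks on it. Both are known for the production of peptides for antigen presentation, whereas neurons and glia rely mostly on the constitutive core.

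Values are log2 signals as deposited, and differences were tested with limma across all 45037 probe sets, with a Benjamini-Hochberg adjusted p below 0.05 counted as a call. Nerve arrays had medians of 8.29 to 8.40 and motoneuron arrays of 6.53 to 6.59, so the tissues appear to have been normalized apart, and the median difference of all probe sets between motoneurons and nerve was -1.09 in wild type and -1.04 in Gdap1-/- arrays. Motoneuron markers averaged 11.80 to 12.10 in the motoneuron arrays and 6.95 to 7.51 in nerve, and the 7 measured Schwann cell and myelin markers averaged 14.11 to 14.38 in nerve. Oligodendrocyte markers averaged 10.67 to 11.60 and astrocyte markers 10.56 to 11.25 in the motoneuron arrays. By Xist and the Y-linked Eif2s3y, wild type replicate 2 and Gdap1-/- replicate 3 of nerve read as female and the other nerve arrays as male. In motoneurons Gdap1-/- replicate 2 read as male and all other arrays, every wild type array among them, as female. Tissue and sex thus differ together in part, and the part of sex in the tissue differences was not tested. The BioB control probe sets averaged 11.19 to 11.47 in wild type and 10.28 to 10.38 in Gdap1-/- nerve. In motoneurons they averaged 10.82 to 11.05 in wild type and 10.22 to 10.45 in Gdap1-/- arrays. This control thus differed with the genotype in both tissues, and its relation to the genotype differences was not tested. No pair of arrays held identical values.

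Most proteasome genes were bright in both tissues. The probe sets of 42 of the 44 genes read above the overall median in nerve, and those of 41 did so in motoneurons. Psma8, the alpha subunit of the testis proteasome, and Psmb11, the catalytic subunit of the thymus, were below it in both tissues. Psmb9 was below it in motoneurons alone. Brightness differs between probe sets for reasons other than RNA abundance, so levels are compared only within a gene. The spread between replicates was small, with a median SD over the members of 0.10 in wild type nerve, 0.14 in Gdap1-/- nerve, 0.087 in wild type motoneurons and 0.045 in Gdap1-/- motoneurons.

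The largest differences lay between the tissues, in the inducible subunits Psmb8 and Psmb9 and the activator Psme1. By the probe sets used, Psmb8, Psmb9 and Psme1 were lower in motoneurons than in nerve by over 5 log2 units in both genotypes. In contrast, 36 of the 44 genes stayed within 1 log2 unit in both. The next lowest were Psmc3ip, at -2.22 and -1.56, Psma8, at -1.78 and -0.87, and the third inducible subunit Psmb10, at -1.33 and -1.16. In wild type arrays 12 of 44 genes were called higher in motoneurons and 16 lower, beside 17.7% and 63.7% of all genes. In Gdap1-/- arrays 13 were called higher and 19 lower, beside 18.9% and 64.1%. The 2 comparisons share no array, and 11 genes were called higher and 16 lower in both, with none called in opposite directions. The median difference of the 44 was -0.09 in wild type and -0.06 in Gdap1-/- arrays, against -0.90 and -0.86 for all genes. Set against that overall median of probe sets, -1.09 and -1.04, 37 of the 44 genes lay above it in wild type and 38 in Gdap1-/- arrays.

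**Figure D1:**
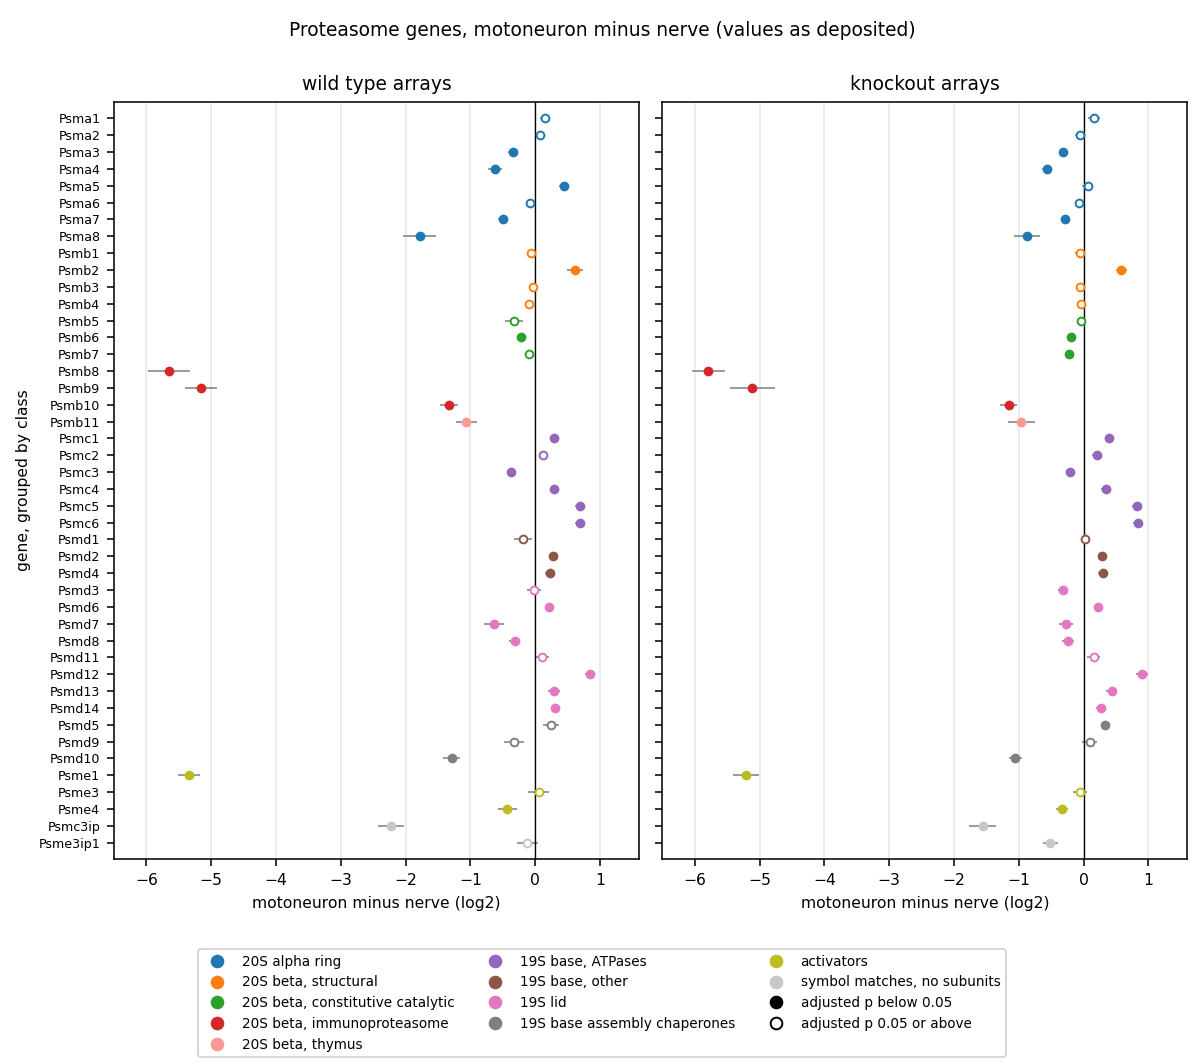
Motoneuron minus nerve difference (log2, x axis) of each of the 44 genes (y axis, grouped and coloured by class), with wild type arrays on the left and Gdap1-/- arrays on the right. Points are limma estimates from 3 against 3 arrays, bars are 1 SE, and filled points have an adjusted p below 0.05. Psmb8, Psmb9 and Psme1 stand beyond -5 in both panels, and Psmd12, Psmc5, Psmc6 and Psmb2 are the highest.

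Psmb8 encodes the inducible subunit that takes the place of Psmb5. It read 12.56, 13.01 and 12.07 in wild type nerve and 12.89, 13.09 and 12.16 in Gdap1-/- nerve. In motoneurons it read 6.95, 6.36 and 7.40 in wild type and 7.09, 6.63 and 7.05 in Gdap1-/- arrays. Every nerve array was thus far above every motoneuron array. The difference was -5.64 (SE 0.32, adjusted p = 1.54e-06 by limma, n = 3 per group) in wild type and -5.79 (SE 0.25, adjusted p = 9.37e-08) in Gdap1-/- arrays. Psmb8 had 2 probe sets, and these values are those of the brighter. The inducible minus constitutive measure below changed between tissues by -3.83 and -3.87 with the brighter, and by -3.10 and -3.02 with probe sets averaged. Psmb8 alone of the genes in that measure had more than 1 probe set, so its dimmer probe set differed less between the tissues.

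Psmb9, which replaces Psmb6, read 11.11, 11.70 and 10.83 in wild type nerve and 11.57, 11.94 and 10.61 in Gdap1-/- nerve. In motoneurons its values were 6.12, 5.93 and 6.14 in wild type and 6.14, 6.71 and 5.93 in Gdap1-/- arrays. Again no nerve array came near a motoneuron array, and the motoneuron values were near or below the medians of those arrays. The deposited table holds no detection calls, so whether these signals stand above background was not tested, and the differences of Psmb8 and Psmb9 may be understated if they do not. The difference was -5.15 (SE 0.25, adjusted p = 6.18e-07 by limma) in wild type and -5.11 (SE 0.35, adjusted p = 1.31e-06) in Gdap1-/- arrays.

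Psmb10, which replaces Psmb7, differed far less. It read 12.80, 13.05 and 12.51 in wild type nerve, 12.84, 13.15 and 12.68 in Gdap1-/- nerve, 11.56, 11.43 and 11.39 in wild type motoneurons and 11.86, 11.54 and 11.81 in Gdap1-/- motoneurons. The tissues did not overlap, and the difference was -1.33 (SE 0.15, adjusted p = 5.76e-05 by limma) in wild type and -1.16 (SE 0.13, adjusted p = 4.17e-05) in Gdap1-/- arrays. That is close to the median of all probe sets, and after centring of the arrays on their medians Psmb10 was higher in motoneurons, by 0.43 and 0.62.

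Psme1, the alpha subunit of the PA28 activator, followed Psmb8 and Psmb9. It read 14.01, 14.20 and 13.87 in wild type nerve and 14.05, 14.27 and 13.91 in Gdap1-/- nerve, against 8.99, 8.55 and 8.52 in wild type motoneurons and 9.06, 8.37 and 9.17 in Gdap1-/- motoneurons. The difference was -5.34 (SE 0.17, adjusted p = 1.22e-07 by limma) in wild type and -5.21 (SE 0.20, adjusted p = 5.64e-08) in Gdap1-/- arrays. The other activators did not share it. Psme3, the nuclear activator known as PA28 gamma, differed by 0.05 and -0.05 without a call, and Psme4, or PA200, by -0.43 (adjusted p = 0.0224 by limma) and -0.33 (adjusted p = 0.00600). The probe sets of Psme3 disagreed. One nearly as bright, with a mean of 11.64 against 11.69, gave 1.23 in Gdap1-/- arrays. A dim one, with a mean of 4.37, gave -1.02 in wild type.

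The constitutive partners were nearly level between the tissues as deposited. Psmb5, with the chymotrypsin-like site, read 14.13, 14.06 and 14.01 in wild type nerve and 13.74, 13.43 and 14.05 in wild type motoneurons, where replicate 3 fell within the nerve values. In Gdap1-/- arrays it read 14.10, 14.22 and 14.03 in nerve and 14.06, 14.07 and 14.10 in motoneurons, which overlap. Its differences of -0.32 and -0.04 were not called.

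Psmb6, with the caspase-like site, read 14.46, 14.39 and 14.36 in wild type nerve and 14.17, 14.14 and 14.24 in wild type motoneurons, and in Gdap1-/- arrays 14.38, 14.55 and 14.38 in nerve and 14.24, 14.26 and 14.25 in motoneurons. The tissues did not overlap in either genotype, and it was called lower, by -0.22 and -0.19. Psmb7, with the trypsin-like site, read 13.67, 13.69 and 13.68 in wild type nerve and 13.55, 13.55 and 13.65 in wild type motoneurons, and 13.59, 13.83 and 13.60 against 13.41, 13.51 and 13.45 in Gdap1-/- arrays. Its difference of -0.10 was not called in wild type, and that of -0.22 was called in Gdap1-/- arrays (adjusted p = 0.0214 by limma). For all 3 of these genes the sign turned positive when the arrays of both tissues were quantile normalized together or centred.

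**Figure D2:**
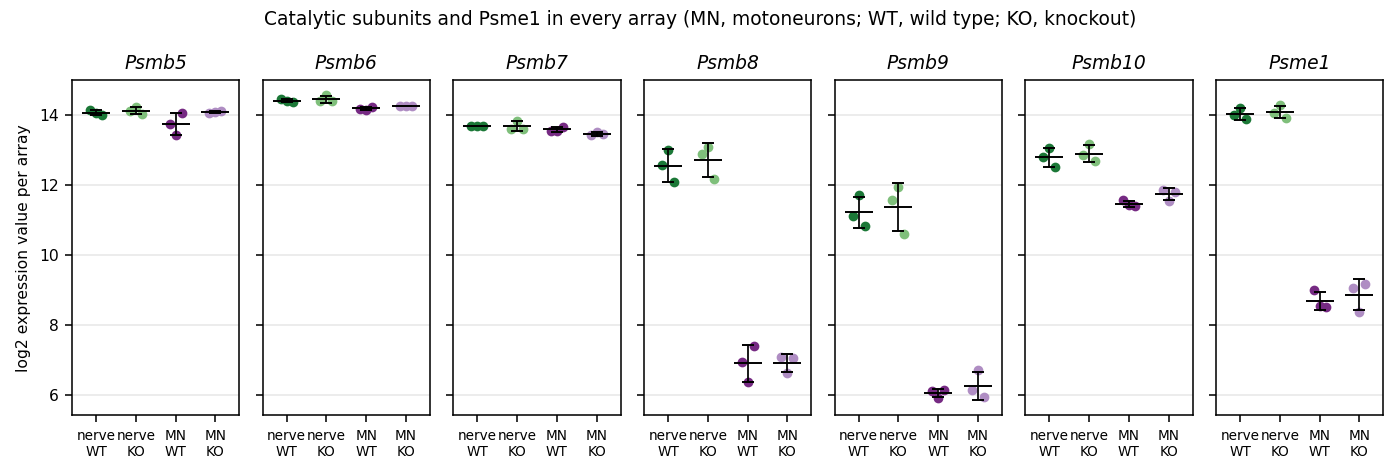
Log2 expression value (y axis) of the 3 constitutive catalytic subunits, the 3 immunoproteasome subunits and Psme1 in each array (points), by tissue and genotype (x axis), with mean and SD of 3 arrays as bars. Psmb8, Psmb9 and Psme1 drop by over 5 units from nerve to motoneurons in both genotypes, Psmb10 by little more than 1, and Psmb5, Psmb6 and Psmb7 hardly move.

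A measure that any offset common to a whole array leaves unaltered is the mean log2 of Psmb8, Psmb9 and Psmb10 minus that of Psmb5, Psmb6 and Psmb7. Only its change is read, since the probe sets differ in brightness. It was -1.87 ± 0.38 (SD, n = 3) in wild type nerve, -1.75 ± 0.39 (SD, n = 3) in Gdap1-/- nerve, -5.69 ± 0.096 (SD, n = 3) in wild type motoneurons and -5.62 ± 0.066 (SD, n = 3) in Gdap1-/- motoneurons. The change from nerve to motoneurons was -3.83 in wild type and -3.87 in Gdap1-/- arrays, many times the SD in any group. As a score over genes chosen for their roles it was given no test, and it shares the limit on dim signals given for Psmb9.

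Genes that work with the immunoproteasome in antigen presentation were lower in motoneurons as well. All 10 measured genes of the interferon and peptide-loading list were called lower in both genotypes, with medians of -2.80 in wild type and -2.62 in Gdap1-/- arrays. Of all genes 63.7% and 64.1% were called lower. Tap1, a subunit of the peptide transporter of the endoplasmic reticulum, differed by -4.27 and -4.15. Nlrc5, an activator of class I genes, differed by -5.14 and -4.64, and the interferon-regulatory factors Irf8 and Irf1 by -4.89 and -4.71 and by -3.49 and -3.21. B2m, the light chain of class I molecules, differed by -1.72 and -2.18, and was still at 12.66 to 13.40 in motoneurons.

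Markers of immune cells moved with these genes. All 12 macrophage, microglia and dendritic cell markers were called lower in motoneurons in both genotypes, beside 63.7% and 64.1% of all genes. Their mean level was 12.09 to 12.59 in nerve arrays and 6.37 to 6.78 in motoneuron arrays. In the motoneuron arrays Cd74, the invariant chain of class II molecules, read 6.1 to 6.7 and the common leucocyte antigen Ptprc 3.7 to 5.0, while Csf1r, the receptor for macrophage growth factor, was at 9.7 to 10.4. Lymphocyte markers (4 of 4 measured), endothelium markers (8 of 8) and fibroblast markers (8 of 8) were lower too, the first at 7.84 to 8.53 in nerve and 4.18 to 4.59 in motoneurons. The part of these cells in the levels of Psmb8, Psmb9 and Psme1 was not tested, and in such bulk RNA fewer cells of a type and less RNA per cell cannot be told apart.

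The promoters of the genes that stood apart and of some that did not are shown, to set the sequence next to the values. RefSeq windows on the GRCm38.p6 assembly were found for 37 of the 44 genes. The first 3 sequences belong to the genes lower by over 5 log2 units, the next pair to the constitutive subunits Psmb5 and Psmb6, and the last pair to Psmd12 and Psmc6, which were among the highest in motoneurons. Each is 120 bases ending at the base before the start, apart from Psmb9. For that gene the whole 225 bases between its start and the start of its neighbour Tap1, which runs the other way, are given. All run 5′ to 3′ on the strand of the gene. Capitals mark matches, on either strand, to the motifs searched: TGACNNNGC (the core of the antioxidant response element), CCAAT (the NF-Y box), CCGGAAG (an ETS motif) and the interferon-regulatory factor motif, of which these windows hold none. Matches to the middle pair shared a base in Psma6 and Psmc2, whose windows are not shown.
Psmb8 (chr17:34198075-34198194, plus strand): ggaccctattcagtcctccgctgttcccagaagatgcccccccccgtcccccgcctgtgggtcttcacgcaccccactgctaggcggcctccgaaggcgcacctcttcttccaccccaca
Psmb9 (chr17:34187331-34187555, minus strand): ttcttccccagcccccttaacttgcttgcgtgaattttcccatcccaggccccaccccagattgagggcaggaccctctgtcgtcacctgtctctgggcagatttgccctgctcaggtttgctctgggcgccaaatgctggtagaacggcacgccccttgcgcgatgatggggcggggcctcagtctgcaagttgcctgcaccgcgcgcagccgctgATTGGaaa
Psme1 (chr14:55578374-55578493, plus strand): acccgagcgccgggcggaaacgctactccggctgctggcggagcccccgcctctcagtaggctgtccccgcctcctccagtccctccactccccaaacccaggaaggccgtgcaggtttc
Psmb5 (chr14:54617996-54618115, minus strand): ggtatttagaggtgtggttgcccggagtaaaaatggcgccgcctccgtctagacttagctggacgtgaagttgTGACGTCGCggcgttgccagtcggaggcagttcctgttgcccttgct
Psmb6 (chr11:70525237-70525356, plus strand): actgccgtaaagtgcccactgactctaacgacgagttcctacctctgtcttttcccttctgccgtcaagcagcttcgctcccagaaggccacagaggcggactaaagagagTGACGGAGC
Psmd12 (chr11:107479408-107479527, plus strand): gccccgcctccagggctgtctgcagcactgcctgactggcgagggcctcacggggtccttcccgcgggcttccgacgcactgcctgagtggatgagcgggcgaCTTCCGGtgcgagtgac
Psmc6 (chr14:45329704-45329823, plus strand): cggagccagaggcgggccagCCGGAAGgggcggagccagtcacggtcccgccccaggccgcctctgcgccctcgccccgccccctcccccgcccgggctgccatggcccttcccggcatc

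In the 250 bases before the start, CCGGAAG was present for 12 of the 37 genes, in 32.5% of their windows, against 6.91% of the 32851 windows in the table. The 12 include the base ATPases Psmc1, Psmc2 and Psmc6 and the lid genes Psmd6, Psmd11 and Psmd12. The antioxidant response element core was present for 5 genes (12.5% of windows, against 10.2% of all). These were Psmb5 and Psmb6, as printed above, Psmd9, and also Psmc6 and Psmd12, whose matches lie outside the printed bases. CCAAT was present for 16 genes (40% of windows against 33.8%), and in the Psmb9 window it lies on the reverse strand within a few bases of the start. The interferon-regulatory factor motif was found for 3 genes, Psmb3, Psmd4 and Psmd9 (7.5% of windows against 2.98%), and for none of Psmb8, Psmb9, Psmb10 and Psme1. With the 50 bases after the start included, it was found for 1 of these 4, Psme1, and in 10% of the members' windows against 3.44% of all. A match describes the letters in this window alone, and so does the lack of one.

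The 19S particle was the part of the complex with most genes above nerve by the probe sets used. Of the 6 base ATPases 4 were called higher in motoneurons and 1 lower in wild type arrays, and 5 higher and 1 lower in Gdap1-/- arrays. Psmc5 read 12.45, 12.49 and 12.48 in wild type nerve and 13.11, 13.14 and 13.22 in wild type motoneurons, with no overlap, and differed by 0.69 (SE 0.074, adjusted p = 5.17e-05 by limma). In Gdap1-/- arrays it read 12.34, 12.62 and 12.45 in nerve and 13.29, 13.32 and 13.28 in motoneurons, a difference of 0.83 (SE 0.081, adjusted p = 1.41e-05).

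Psmc6, another ATPase of the ring, read 13.57, 13.65 and 13.36 in wild type nerve and 14.15, 14.29 and 14.21 in wild type motoneurons, and differed by 0.69 (adjusted p = 0.000110 by limma). In Gdap1-/- arrays the values were 13.46, 13.59 and 13.27 in nerve and 14.28, 14.26 and 14.27 in motoneurons, a difference of 0.84 (adjusted p = 9.28e-06). All motoneuron arrays were above all nerve arrays. A dimmer probe set of Psmc6, with a mean of 8.01, gave -0.06 in Gdap1-/- arrays. Psmc3 was the ATPase gene called lower, by -0.37 and -0.21, and it turned positive when the arrays were centred or quantile normalized together.

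In the lid, which holds the deubiquitinase Psmd14, 4 of 8 genes were called higher in both genotypes. Of all genes 17.7% were called higher in wild type and 18.9% in Gdap1-/- arrays. Psmd12, a scaffold subunit, had the largest positive difference of all 44 genes by the probe sets used. It read 12.81, 12.72 and 12.59 in wild type nerve and 13.58, 13.59 and 13.49 in wild type motoneurons, and 12.68, 12.88 and 12.49 against 13.61, 13.59 and 13.57 in Gdap1-/- arrays. The tissues did not overlap, with differences of 0.85 (SE 0.082, adjusted p = 2.72e-05 by limma) and 0.91 (SE 0.093, adjusted p = 1.91e-05). Psmd14 differed by 0.31 and 0.27, Psmd13 by 0.29 and 0.44 and Psmd6 by 0.22 and 0.22. Psmd7, the partner of Psmd14, was called lower, by -0.64 and -0.27, and so was Psmd8, by -0.31 and -0.24. In the base, the scaffold Psmd2 and the ubiquitin receptor Psmd4 were called higher, by 0.28 and 0.28 and by 0.23 and 0.30. Among the chaperones of base assembly, Psmd10 was called lower, by -1.29 and -1.05, and Psmd5 higher in Gdap1-/- arrays alone, by 0.34 against 0.25 in wild type, a difference of genotype effects that did not pass (adjusted p = 0.904 by limma).

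Within the core, Psmb2 was the structural beta subunit called higher, by 0.61 and 0.58, and Psmb1, Psmb3 and Psmb4 stayed within 0.10 of 0. In the alpha ring, which gates the barrel, Psma4, Psma7 and Psma3 were called lower in both genotypes, by -0.62, -0.50 and -0.35 in wild type arrays. Psma8 and Psmb11, both dim, were called lower as well, by -1.78 and -1.06 in wild type. Psma5 was called higher in wild type arrays (0.44, adjusted p = 0.000669 by limma) and not in Gdap1-/- arrays (0.07, adjusted p = 0.471), while the difference between these, -0.37, did not pass (adjusted p = 0.598 by limma). A dim probe set of Psma5, with a mean of 6.33, gave -2.94 and -3.24.

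The scaling of the tissues sets the sign of small differences. After quantile normalization of both tissues together 28 of 44 genes were called higher and 6 lower in wild type arrays, and after centring 39 were called higher and 3 lower, while the median of all probe sets moved to 0.15 and 0.67. Of all probe sets 39.6% were then called higher and 32.9% lower after quantile normalization, and 54.9% and 24.7% after centring. Psmb8, Psmb9 and Psme1, each by the probe set used, were called lower under the deposited, quantile and centred values in both genotypes. They were the only members of which this holds. Under the same 3 scalings 12 genes were called higher in wild type and 13 in Gdap1-/- arrays, Psmd12, Psmc5, Psmc6 and Psmb2 among them.

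**Figure D3:**
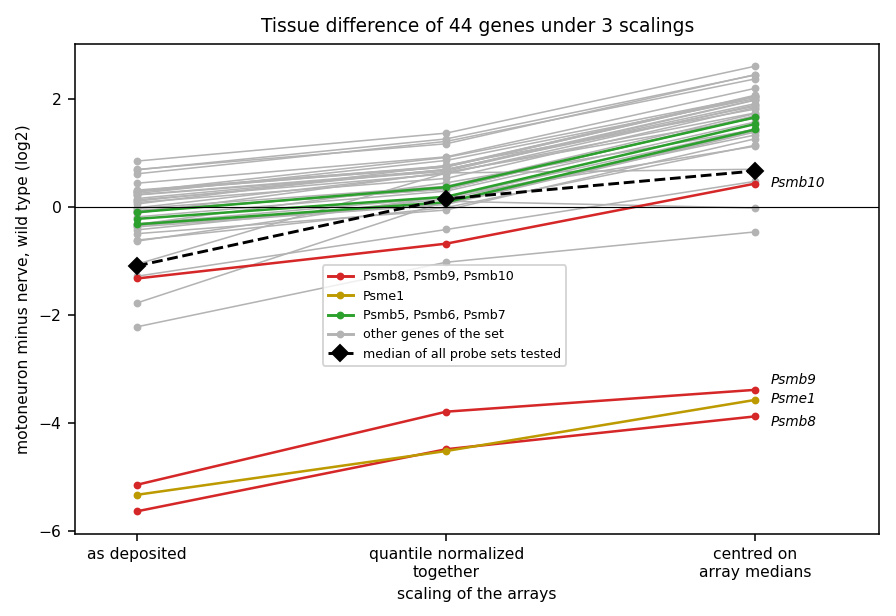
Motoneuron minus nerve difference in wild type arrays (log2, y axis) of the 44 genes under 3 scalings of the arrays (x axis), with 1 line per gene and the overall median of probe sets as a dashed black line. Psmb8, Psmb9 and Psme1 stay at -3.39 or below under all 3, while Psmb10 and the constitutive catalytic subunits move from below 0 to above 0 with centring.

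Other genes of the pathway gave a mixed picture. The counts that follow stand beside 17.7% of all genes called higher and 63.7% called lower in wild type motoneurons. Of 15 measured shuttle factors and proteasome-associated enzymes, 7 were called higher and 2 lower in wild type motoneurons. Usp14, a deubiquitinase that docks on the base, had the largest difference, 1.78 (1.37 in Gdap1-/- arrays), and Uchl5, another, 0.73. Of 7 assembly factors of the core and inhibitors, 4 were called lower and 1 higher, with the chaperones Psmg1 and Psmg4 at -1.27 and -1.23 and Psmg3 at 0.43. Among 7 transcriptional controllers, 4 were called lower. Nfe2l2, the regulator of the oxidative stress response, differed by -5.08 and -5.46, whereas Nfe2l1, which drives proteasome genes when the proteasome is blocked, differed by 0.55 and -0.13 without a call.

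In motoneurons the Gdap1 genotype gave no called proteasome gene. None of the 44 passed (limma, adjusted p), beside 0% of all genes, and the smallest adjusted p was 0.0904, that of Psma5. At an unadjusted p under 0.05 there were 13 higher and 3 lower in Gdap1-/- arrays, where 20.8% of all genes passed that limit in either direction. In 16 genes all Gdap1-/- arrays were above all wild type arrays and in 3 below, beside 13.9% and 11.9% of all genes. The median difference of the 44 was 0.07, against 0.02 for all genes, and ran from 0.048 without wild type replicate 1 to 0.12 without wild type replicate 3.

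Psma5, an alpha-ring subunit, read 13.57, 13.74 and 13.66 in wild type and 13.22, 13.22 and 13.14 in Gdap1-/- motoneurons. The groups did not overlap, and the difference was -0.46 (SE 0.059, adjusted p = 0.0904 by limma). A second bright probe set of Psma5 differed by -0.09 (adjusted p = 0.441 by limma). Psma2 read 13.84, 13.86 and 13.69 against 13.70, 13.53 and 13.59, which overlap, a difference of -0.19 (adjusted p = 0.215 by limma). Psmb7 read 13.55, 13.55 and 13.65 against 13.41, 13.51 and 13.45, without overlap, a difference of -0.12 (adjusted p = 0.281 by limma).

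The genes with the smallest p in the other direction were Psmd4, Psmd7 and Psma7. Psmd4 read 13.74, 13.66 and 13.62 in wild type and 13.86, 13.83 and 13.90 in Gdap1-/- motoneurons, a difference of 0.19 (adjusted p = 0.134 by limma). Psmd7 read 10.62, 10.61 and 10.58 against 10.94 to 11.05, a difference of 0.39 (adjusted p = 0.135 by limma). In both genes the groups were apart. Psma7 read 13.42, 13.42 and 13.62 against 13.68, 13.75 and 13.74, a difference of 0.24 (adjusted p = 0.145 by limma), but its other bright probe set gave -0.01. For Psmc6, with 0.05 by the probe set used, a pair of dimmer probe sets gave -0.48 and -1.16.

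The catalytic subunits showed no common shift. Psmb5 differed by 0.34 (adjusted p = 0.268 by limma) and Psmb6 by 0.07. Among the inducible subunits Psmb8 differed by 0.02, Psmb9 by 0.20 and Psmb10 by 0.28 (adjusted p = 0.268 by limma). All 6 base ATPases and all 3 base chaperones had positive differences, from 0.02 for Psmc4 to 0.46 for Psmd9, none of them called.

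Much of the motoneuron picture turned on wild type replicate 3. In that array Psmb5 (14.05), Psmd1 (13.82) and Psmd9 (11.41) read like the Gdap1-/- arrays, at 14.06 to 14.10, 13.68 to 13.72 and 11.43 to 11.76, while the other wild type arrays were at 13.43 and 13.74, 13.30 and 13.32, and 10.96 and 10.97. In 28 of the 44 genes it lay nearer to the Gdap1-/- mean than to the mean of its own other replicates. The share over all genes was not counted. Over all probe sets this array correlated more with the Gdap1-/- arrays (mean r 0.989) than with its own group (0.987), so the trait is not particular to proteasome genes. The signal of 18S ribosomal RNA in this array was near the Gdap1-/- arrays too. It read 13.94, 13.77 and 14.64 in wild type and 14.66 to 14.67 in Gdap1-/- arrays, and its part in these differences was not tested. Without this array 8 of the 44 genes were called. Psmd1, Psma7, Psmb5, Psmd9 and Psmc3 were higher, by 0.39, 0.31, 0.49, 0.61 and 0.19, beside 5.62% of all genes, and Psma5, Psma2 and Psme3ip1 were lower, by -0.46, -0.24 and -0.53, beside 8.4%.

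Endothelium markers, mean level 6.54 to 6.76 in wild type and 6.12 to 6.43 in Gdap1-/- motoneurons, also moved with the genotype, with 7 of 8 negative and none called, and their part was not tested. Oligodendrocyte markers averaged 11.60, 11.02 and 11.28 in wild type and 11.12, 10.67 and 10.97 in Gdap1-/- motoneurons, with 8 of 8 negative, a median of -0.40 and 2 lower at an unadjusted p under 0.05 by limma. Astrocyte markers averaged 10.91 to 11.25 and 10.56 to 10.92, with 5 of 8 negative and 4 lower at that limit, each of the 4 with its groups apart. Of all 18193 genes 1983 were lower at that limit, and in 11.9% all Gdap1-/- arrays were below all wild type arrays. None of the oligodendrocyte and astrocyte markers was called, and their part in the values of the proteasome genes was not tested. Of the 40 pathway genes outside the proteasome none was called. At an unadjusted p under 0.05 by limma 3 were higher and 12 lower, beside 1809 and 1983 of all 18193 genes. Ecpas, which tethers proteasomes to other structures, differed by 0.38 (adjusted p = 0.108 by limma). Nfe2l1 read 13.46, 13.60 and 12.78 in wild type and 12.83, 12.73 and 12.73 in Gdap1-/- motoneurons, again with replicate 3 near the latter, a difference of -0.51 (adjusted p = 0.240 by limma).

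**Figure D4:**
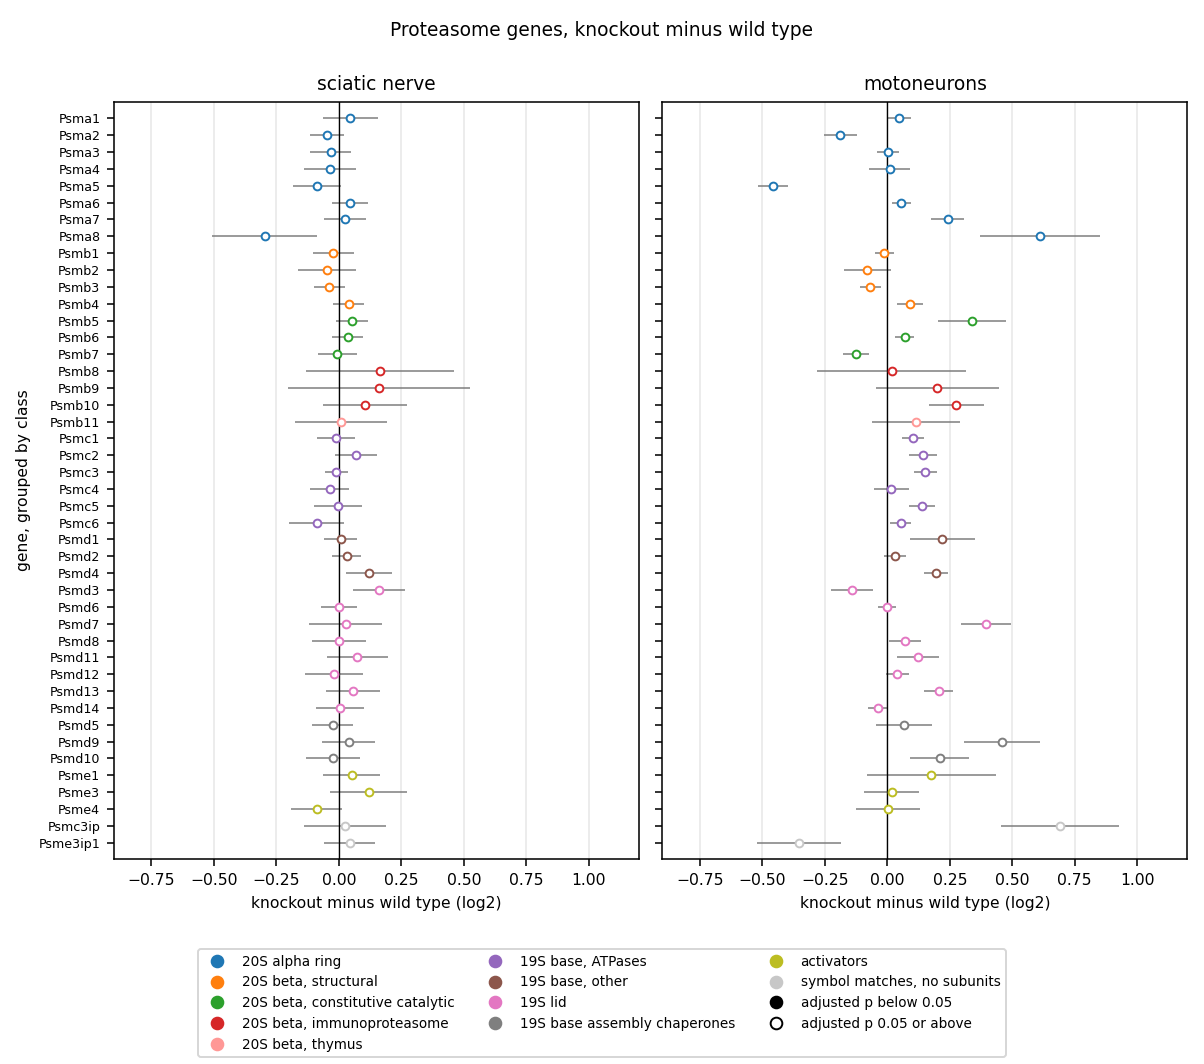
Knockout (Gdap1-/-) minus wild type difference (log2, x axis) of the 44 genes (y axis, by class) in sciatic nerve (left) and motoneurons (right), as limma estimates with bars of 1 SE from 3 against 3 arrays. All points are open because none has an adjusted p below 0.05. In motoneurons Psma5 stands at -0.46, and Psma8, Psmd9 and Psmc3ip lie to the right with wide bars.

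In nerve the genotype gave no called gene, and the differences were centred on 0. None of the 44 was called (limma, adjusted p), beside 0% of all genes, and none had an unadjusted p under 0.05, which 2.04% of all genes had. In none were the groups apart, as they were in 6.91% of all genes. The differences had a median of 0.01 and ran from -0.30 (Psma8) to 0.16 (Psmb8), with 25 positive and 19 negative.

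The genes with the smallest p were Psmd3, Psmd4 and Psmc2 on the positive side and Psma8, Psma5 and Psme4 on the negative side. The lid subunit Psmd3 read 12.31, 12.03 and 12.09 in wild type and 12.28, 12.39 and 12.24 in Gdap1-/- nerve, a difference of 0.16 (SE 0.10). Psmd4 read 13.51, 13.43 and 13.40 against 13.55, 13.74 and 13.41 and differed by 0.12. Psma8 read 7.26, 6.59 and 6.91 against 6.43, 6.79 and 6.66. In each of them the genotypes overlap, and the smallest unadjusted p of all members by limma was 0.165, that of Psmd3.

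**Figure D5:**
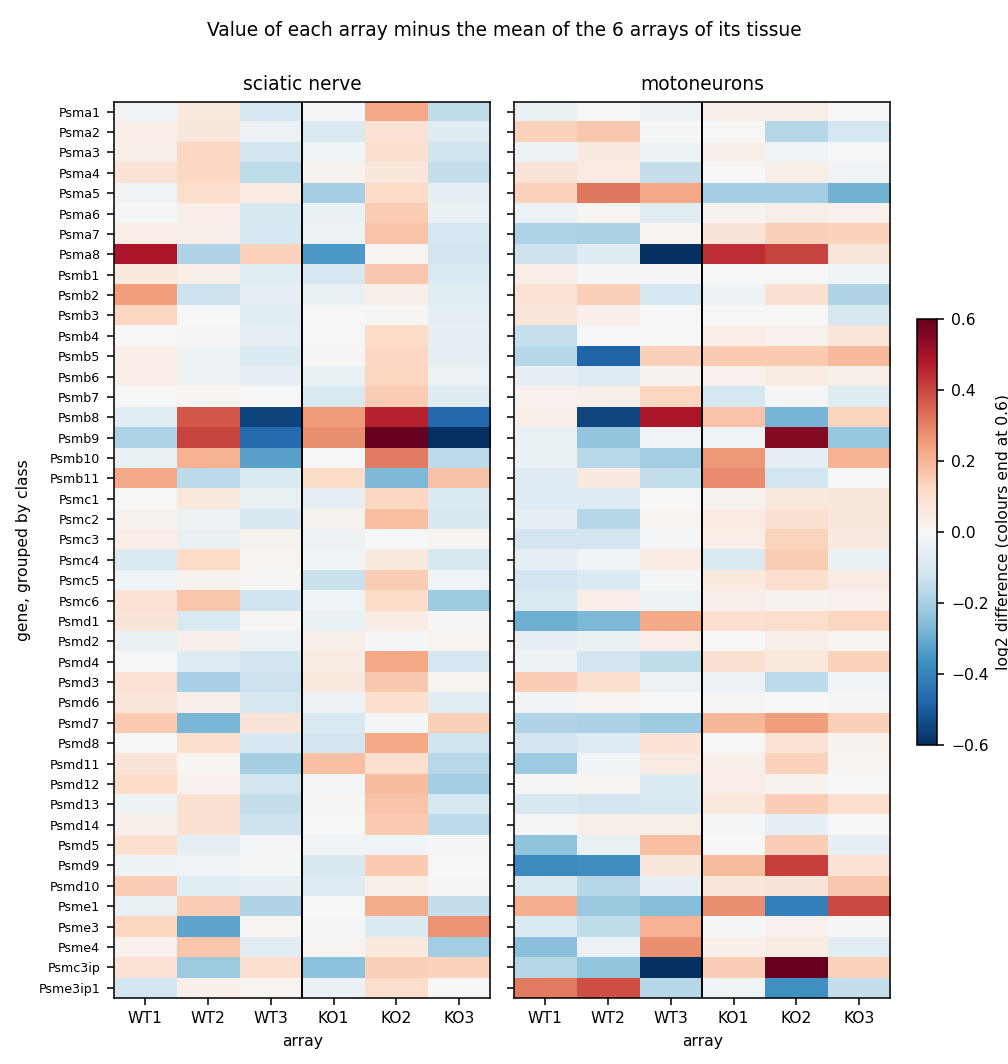
Value of each gene (rows, grouped by class) in each array (columns) minus the mean of the 6 arrays of its tissue, with colours that end at 0.6 log2 units, for nerve on the left and motoneurons on the right. In nerve the array Gdap1-/- replicate 2 is red for most genes and the rows of Psmb8 and Psmb9 vary most; in motoneurons wild type replicate 3 differs from replicates 1 and 2 for Psmb5, Psmd1 and Psmd9.

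The nerve arrays differed among themselves. Of the 44 genes 27 had their highest nerve value in Gdap1-/- replicate 2 and 15 had their lowest in wild type replicate 3. Psmb8 and Psmb9 had the largest SD of all members, 0.47 for Psmb8 in wild type and 0.69 for Psmb9 in Gdap1-/- nerve. Replicate 2 was highest and replicate 3 lowest in both genotypes for Psmb8, Psmb9, Psmb10 and Psme1. Marker lists of 3 cell types had the same order. Macrophage markers averaged 12.22, 12.59 and 12.09 in wild type and 12.33, 12.52 and 12.22 in Gdap1-/- nerve, lymphocyte markers 8.03, 8.29 and 7.84 and then 8.16, 8.53 and 7.99, and fibroblast markers 13.99, 14.13 and 13.89 and then 13.96, 13.99 and 13.94. Skeletal muscle markers were lowest in replicate 2 of both genotypes, at 13.64, 7.99 and 12.29 in wild type and 10.73, 9.54 and 10.43 in Gdap1-/- nerve. In Gdap1-/- nerve 7 of these 8 had a negative difference, with a median of -0.95 and none called. The part of these cell types in the values of the 44 genes was not tested. The labels do not tie a wild type array to a Gdap1-/- array by these numbers, and what same-numbered nerve arrays may share was not tested.

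The genotype effects of the 2 tissues were not told apart for any proteasome gene. None of the 44 interactions was called (limma, adjusted p), beside 0% of all genes, with 4 positive and 2 negative at an unadjusted p under 0.05, which 9.07% of all genes had. The smallest p belonged to Psma5, at -0.37 (SE 0.11, adjusted p = 0.598 by limma). Psma8 had the largest value, 0.91 (SE 0.33, adjusted p = 0.629 by limma), from probe set values below 8 throughout, followed by Psmc3ip at 0.67, Psmd9 at 0.42 and Psme3ip1 at -0.40. For the inducible subunits the intervals were wide, with -0.15 (SE 0.44) for Psmb8 and 0.04 (SE 0.47) for Psmb9, so that effects of that size could not be detected with 3 arrays per group.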

How the data were processed

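The authors deposited log2 expression values per probe set in 1 table of 12 arrays, made with Affymetrix Expression Console 1.1 per the submitters' processing notes; their scale was judged from their range, and the steps of summarization and background subtraction are not stated in what was used here. Per the labels, 20 ng of RNA was amplified and different kits purified the RNA of nerve and of motoneurons. Of 45101 probe sets 64 controls were left out, and 34945 of the 45037 tested had 1 symbol. For 34741 of these the gene identifier was found in RefSeq (GRCm38.p6), and the symbol there was used for the pathway and marker lists. Members were chosen by the platform symbol. The fits used limma 3.58.1 under R 4.3.3 (lmFit, eBayes with a trend, two-sided, Benjamini-Hochberg over all probe sets, threshold 0.05). The tissue comparison used the values as deposited, and the scaling alternatives stand beside it. The interaction used all arrays. Values were given in every array for the catalytic subunits and, between tissues, for the 3 members of smallest p in each direction. For the genotype effects and the interaction they were given for only some of the members of smallest p. Others that are named were picked after their values were seen. Precision is limited by the number of arrays. The labels call the arrays biological replicates, though which arrays share a mouse is not stated. The replicate numbers were checked for pairing by the correlation of same-numbered deviations. The labels state no pairing, and the main fits used none. The script for the fits was tested on simulated data. Members, lists and tests were chosen with earlier results of these data known. Promoters came from RefSeq windows, and the planned comparison of protein sequences was not run. Figures were drawn with matplotlib 3.10.9.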

Additional observations from a re-analysis of the deposited data

How the results depend on the processing

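The count of called genes stayed at 0 in nerve and for the difference of genotype effects under every alternative run, each array left out included, and at 26 to 31 (wild type) and 28 to 31 (Gdap1-/-) between tissues with an array left out. In motoneurons it was 1 with probe sets above the median level, 5 with array weights and 1 with all 12 arrays in 1 fit, beside 0.271%, 6.5% and 1.84% of all probe sets tested. With an array left out it was 0 to 8, the 8 without wild type replicate 3, beside 10.3% of all probe sets.

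The median tissue difference of the 44 genes was -0.36 in wild type and -0.34 in Gdap1-/- arrays with probe sets averaged per gene, 1.67 and 1.72 after centring, and 0.41 and 0.46 after quantile normalization. After a shift by the median of all probe sets, an alternative chosen after seeing the data, it was 1.01 in wild type. The change of the inducible minus constitutive measure was -3.20 and -3.29 after quantile normalization, -3.10 and -3.02 with the mean of probe sets, and -5.12 and -5.34 for Psmb8 and Psmb9 against Psmb5 and Psmb6 alone, also chosen after seeing the data. With an array left out it was -4.00 to -3.62 and -4.09 to -3.73.

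Signs turned for these tissue differences. After centring Psmb5, Psmb6, Psmb7 and Psmb10 gave 1.44, 1.54, 1.66 and 0.43 in wild type and 1.74, 1.59, 1.56 and 0.62 in Gdap1-/- arrays. After quantile normalization Psmb5, Psmb6 and Psmb7 gave 0.085, 0.19 and 0.37, and 0.39, 0.25 and 0.28. After the shift they gave 0.77, 0.87 and 0.99 in wild type. With an array left out Psmb5 ran from -0.079 to 0.012 in Gdap1-/- arrays.

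Uncalled genotype differences near 0 turned as follows. In nerve Psma5 gave 0.035 and Psmb8 -0.12 with the mean of probe sets, Psmb6 -0.0067 after centring, and Psme4 0.056 and Psmb7 0.033 without both nerve arrays with high Xist, chosen after seeing the data. In motoneurons Psmb8 gave -0.0081 after centring and -0.0026 after quantile normalization, and Psmb9 -0.10 with Xist as a covariate. For the interaction Psmb8 gave 0.24 with the mean of probe sets, and Psmb9 -0.092 with array weights and -0.069 with Xist. With an array left out the ranges in nerve were -0.0020 to 0.13 for Psmc2, -0.021 to 0.064 for Psmb6, -0.085 to 0.037 for Psmb7, -0.072 to 0.44 for Psmb8, -0.12 to 0.55 for Psmb9 and -0.033 to 0.23 for Psmb10. In motoneurons they were -0.26 to 0.27 for Psmb8 and -0.026 to 0.36 for Psmb9, and for the interaction -0.42 to 0.10 and -0.34 to 0.32. The cause was not tested.

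In the fit with a replicate block 0, 0 and 0 genes were called for nerve, motoneurons and the interaction. Between tissues 28 were called in wild type and 31 in Gdap1-/- arrays, beside 80.8% and 82.1% of all probe sets tested. Same-numbered arrays of the 2 genotypes correlated in their deviations at 0.026 to 0.31 in nerve, against -0.30 to 0.089 for arrays with different numbers. In motoneurons the ranges were -0.079 to 0.090 and -0.12 to 0.15. What same-numbered nerve arrays may share was not tested. With 3 arrays per group an exact permutation test of a single value cannot give a p below 0.1.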
